A study of Mus musculus with 2 samples.

Results

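The genes described here are those of the mitochondrial carriers and of the mitochondrial protein import machinery, measured in microvesicles shed by mouse fat cells and in the fat cells themselves. Members were chosen by gene name: the numbered Slc25a carriers with 1 name left out, the uncoupling proteins Ucp1, Ucp2 and Ucp3, and the numbered Timm and Tomm genes. The rule took 91 of 41174 probes and 53 of 27962 gene names on the array, of which 34 genes (57 probes) are carriers and 19 genes (34 probes) belong to the import machinery. The name rule uses no measured value, though earlier results of these data were known when it was set.

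3T3-L1 is a mouse preadipocyte line that can be turned into fat cells in culture. Cells in medium with 10% fetal calf serum were differentiated with insulin (10 µg/ml), dexamethasone (0.25 µM) and 3-isobutyl-1-methylxanthine (0.5 mM), and both RNAs come from day 11 after induction. One RNA is from adipocyte-derived microvesicles (ADMs) pelleted out of the medium by ultracentrifugation and the other is from the donor cells, each extracted with Trizol, and 250 ng of each was amplified and labelled. Each of the 2 biological replicates is 1 Agilent 2-colour array holding both RNAs, with the ADM RNA in Cy5 on the array of replicate 1 and in Cy3 on that of replicate 2. No other genotype or treatment was compared. The labels do not say whether the replicates shared a culture passage or an extraction, so p-values measure no spread beyond these 2 arrays. The terms ADM-labelled and cell-labelled keep to what the dye labels say, and every direction below would be the opposite had the RNAs been swapped before labelling.

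Carriers of the SLC25 family sit in the inner mitochondrial membrane and exchange nucleotides, phosphate, organic acids, amino acids and cofactors between the cytosol and the matrix, and the uncoupling proteins of the same family let protons back across the membrane. Carriers and most other mitochondrial proteins are made in the cytosol: they pass the outer membrane through the TOM complex, and are then guided by the small TIM chaperones to the TIM22 complex, or sorted by the TIM23 complex. In fat cells the mitochondria supply citrate and ATP for fat synthesis, and Ucp1 marks the brown, heat-producing kind of adipocyte. All of these genes are nuclear, so their messenger RNAs lie in the cytosol, where vesicles can enclose them.

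Most members had messenger RNA that could be measured in the vesicles. A gene was counted as seen in an RNA where a probe of it was well above background on both arrays. By that count 44 of the 53 members (83.0%) were seen in the ADM-labelled RNA, against 46.1% of all genes on the array, and 33 members (62.3%) were seen in the cell-labelled RNA, against 28.7% of all genes. The import machinery was seen almost entire, with 18 of 19 genes found in each RNA. Of the 34 carriers, 26 were seen in ADM-labelled RNA but 15 in cell-labelled RNA.

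The gap between the RNAs in these counts goes with overall signal. After subtraction of the local background, the median net signal of the genes tested was 752 scanner units for the ADM-labelled RNA against 20.8 for the cell-labelled RNA in replicate 1, and 283 against 48.0 in replicate 2, although the labels give the same RNA input. The members' medians were 2277 against 29.7 in replicate 1 and 917 against 93.4 in replicate 2, so their probes were brighter than the median probe tested in both RNAs. The net signal of the ADM-labelled RNA was above that of the cell-labelled RNA on both arrays for 39 of 41 members tested, and for 88.0% of all genes tested. The other 2 members, Slc25a35 and Timm8a2, had more signal in the cell-labelled RNA on both arrays, as did 5.06% of all genes. The part of this overall gap in each value was not tested. Loess normalization removes it as a smooth function of brightness within each array, so a ratio after loess compares a gene with other genes of like brightness and not with its absolute amount. In such pooled material, fewer vesicles or cells holding a message cannot be told apart from less of it in each.

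**Figure D1:**
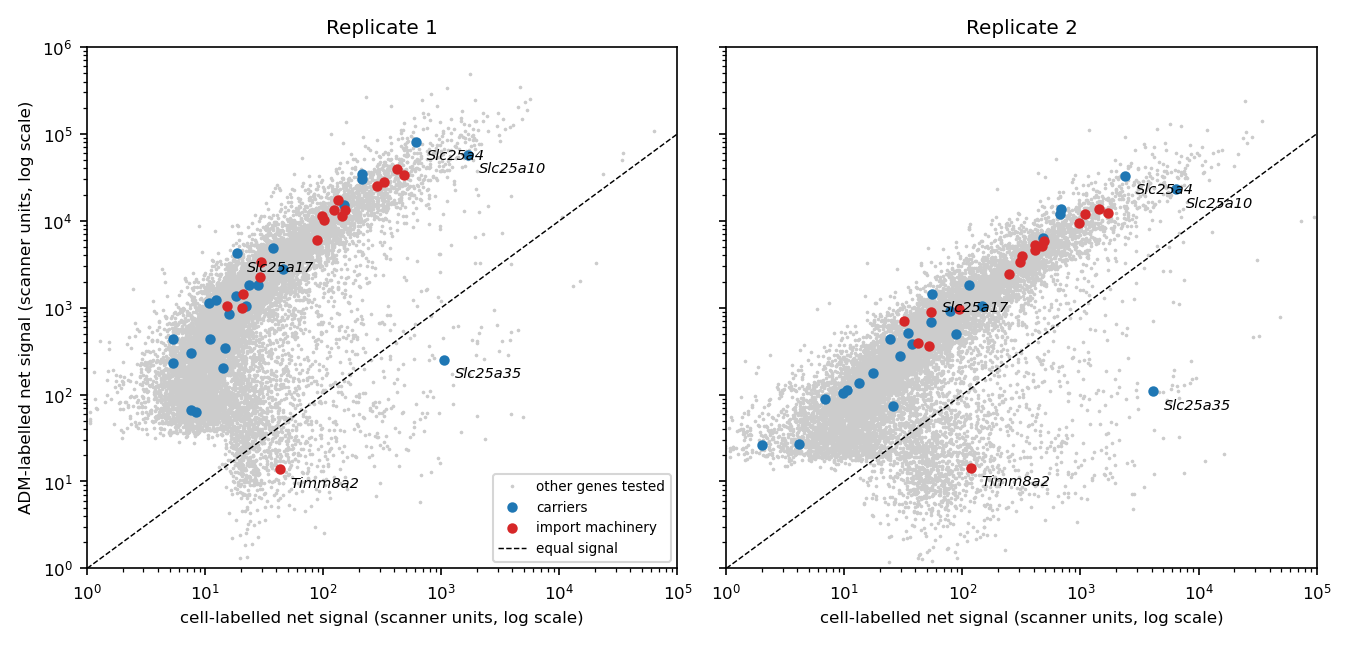
Net signal (scanner units, log axes) of the ADM-labelled RNA against the cell-labelled RNA on each of the 2 arrays, for carriers (blue), import machinery (red) and the other genes tested whose net signals were both above 0 (grey; 13164 and 13108 genes with the members). Members lie along the upper band of the other genes, while Slc25a35 and Timm8a2 fall below the dashed line of equal signal on both arrays.

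Relative to genes of like brightness, most members were near an even ratio of vesicle to cell. Here 13174 genes were tested with limma on the log2 ratio of ADM-labelled over cell-labelled RNA, and 41 members were among them, 24 carriers and 17 import genes. At a Benjamini-Hochberg adjusted p under 0.05, 2 members were higher in the ADM-labelled RNA (4.88% of those tested, against 5.78% of all genes tested), 4 were lower (9.76%, against 12.0% of all genes), and 35 did not pass. The higher members were the carriers Slc25a17 and Slc25a25, and the lower ones were the carriers Slc25a10 and Slc25a35 and the small TIM genes Timm10 and Timm8a2. In the reported fit these shares are close to those of all genes, and in either direction 17.8% of all genes passed. With a change of at least 2-fold required on both arrays, 0 members were higher (1.31% of all genes tested) and 3 were lower (8.05% of all genes): Slc25a10, Slc25a35 and Timm8a2. Timm8a2 was among the genes tested through the cell-labelled RNA alone. Among genes well above background in both RNAs, 7.14% of members were higher and 10.7% lower, against 12.5% and 22.9% of all genes. With a trend in the eBayes prior the members' shares were 4.88% and 7.32%, against 10.9% and 15.8%.

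The median log2 ratio of the 41 members was 0.20, against 0.04 for all genes tested, and their middle 50% ran from -0.13 to 0.31, against -0.34 to 0.25. A log2 ratio within 0.5 of an even one was found for 33 of 41 members (80.5%; 70.2% of all genes) and one within 1 for 37 members (90.2%; 86.6% of all genes). The carriers' median was 0.23 and that of the import machinery 0.05. Both arrays gave the same sign for 35 of 41 members (85.4%, against 82.5% of all genes), and the SD between the 2 arrays was 0.18 at the median member and 0.14 at the median gene. Signs of such small ratios rest on the loess step: 28 of 41 members were above 0 after loess and 31 after centring each array on its median gene, but 17 members, 11 carriers and 6 import genes, changed sign between these normalizations. When spots with an outlying local background were kept, 0 of all genes and 0 members passed in limma (577 genes at an unadjusted p under 0.05), so every call below is lost under that setting. For Slc25a17, Slc25a25, Slc25a35, Timm10 and Timm8a2, the lowest adjusted p of the ranges below comes from limma with median centring. Its prior degrees of freedom were infinite, so those p-values use a variance pooled over all genes and not the gene's own spread.

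**Figure D2:**
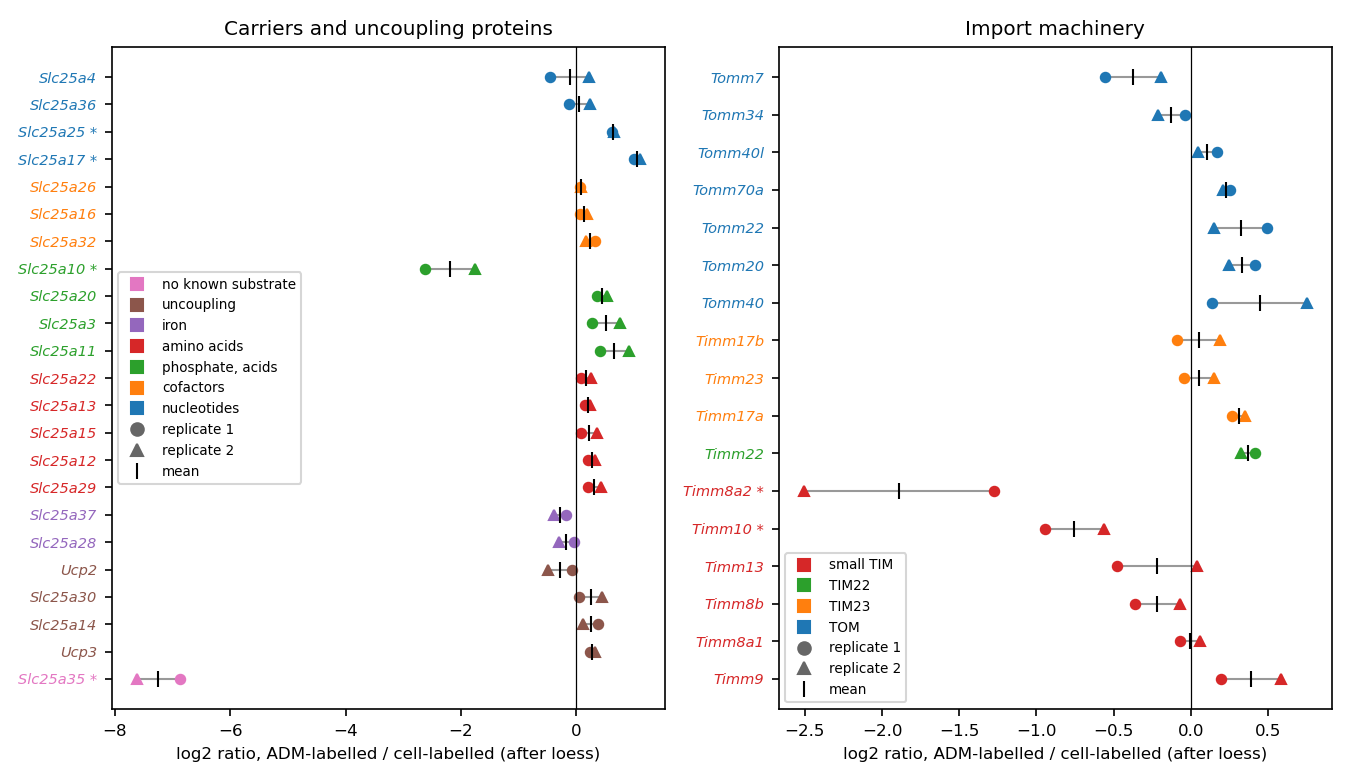
Log2 ratio of ADM-labelled over cell-labelled RNA after loess for the members tested, 1 of which is not shown, with replicate 1 as a circle, replicate 2 as a triangle and their mean as a tick, coloured by role. Asterisks mark the 6 members that passed in limma, and the horizontal scales of the panels differ; Slc25a35 at -7.25 and Slc25a10 at -2.19 stand left of the other carriers.

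Among the carriers of nucleotides and related cofactors, 4 of 8 were tested and 2 were higher in the ADM-labelled RNA, where 5.78% of all genes tested were. Whether 2 of 4 differs from that share was not tested. Slc25a17 is the member of the family that sits in the peroxisome membrane, where it carries CoA and adenine nucleotides. Its brightest probe (mm7 chr15:81403416-81403475, NM_011399) gave net signals of 4268 and 1451 scanner units in the ADM-labelled RNA of replicates 1 and 2, against 18.5 and 55.1 in the cell-labelled RNA. The log2 ratios after loess were 0.99 and 1.10, a mean of 1.05 ± 0.08 (SD, n = 2), or 2.07-fold, with an adjusted p of 0.023 in limma. The arrays differed by far less than the size of the ratio. The other 2 probes of Slc25a17, 214 and 4727 genomic bases further upstream, had ratios of 0.39 and 0.63, and of 0.41 and 0.53, so all 3 probes were above 0 on both arrays but the brightest stood at about double the log2 ratio of the rest. With the median over its probes the mean ratio was 0.52 and the call was lost in limma (adjusted p = 0.0643, in a range from 6.31e-09 to 0.505 over 13 alternatives).

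Slc25a25 is a calcium-regulated carrier that exchanges ATP-Mg for phosphate. Its brightest probe (mm7 chr2:32422066-32422125, NM_146118) had net signals of 4874 and 1817 in the ADM-labelled RNA against 37.6 and 114 in the cell-labelled RNA. The ratios after loess were 0.62 and 0.64, a mean of 0.63 ± 0.02 (SD, n = 2), or 1.55-fold, with an adjusted p of 0.0418 in limma. Its other probes, 336 and 2657 bases upstream, had mean ratios of 0.42 and 0.20, again above 0 on both arrays. The call was lost in limma with the median over probes (0.42, adjusted p = 0.0759), with plain background subtraction (0.70, 0.0869) and with the scanner's own ratio (0.51, 0.145), in a range of adjusted p from 1.95e-07 to 0.505 over 13 alternatives.

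The ADP/ATP carriers bring ADP into the matrix and ATP out. Slc25a4, the form that prevails in heart and muscle, had net signals of 81578 and 33141 in the ADM-labelled RNA against 611 and 2399 in the cell-labelled RNA at the probe used. Its ratios were -0.46 and 0.22 (mean -0.12 ± 0.48, SD, n = 2; adjusted p = 0.697 in limma), so the arrays fell on either side of an even ratio; with median centring the mean was 2.69. A second Slc25a4 probe, with a value after loess in replicate 2 alone, gave -0.05. Slc25a5, the form found in most dividing cells, had net signals of 224523 and 98395 in the ADM-labelled RNA against 645 and 4469 in the cell-labelled RNA. Its only probe carried a flag for an outlying local background in replicate 1 and was not tested; replicate 2 gave 0.73. With flagged spots kept, Slc25a5 had ratios of -0.10 and -0.33 (mean -0.22, adjusted p = 0.505 in limma), so its direction differs between these treatments of the flag.

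The rest of this group was dim or near an even ratio. Slc25a36, a carrier of pyrimidine nucleotides, had -0.13 and 0.24 and was seen on both arrays for the ADM-labelled RNA and on neither for the cell-labelled RNA. Slc25a24, a relative of Slc25a25, had its brighter probe flagged in replicate 1 and gave 0.00 in replicate 2. Slc25a23 and the testis form of the ADP/ATP carrier, Slc25a31, were not well above background on both arrays in either RNA.

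The carriers of phosphate and organic acids had 4 of 5 members tested, of which 1 was lower (12.0% of all genes tested were). Slc25a10, the dicarboxylate carrier, exchanges malate or succinate for phosphate and is abundant in white fat. Its single probe (mm7 chr11:120608056-120608115) had net signals of 57628 and 23036 in the ADM-labelled RNA against 1686 and 6398 in the cell-labelled RNA. In absolute signal the ADM-labelled RNA was thus 34.2-fold and 3.60-fold above the cell-labelled RNA, below the members' medians of 77.3-fold and 10.9-fold. The ratios after loess were -2.62 and -1.76, a mean of -2.19 ± 0.61 (SD, n = 2), 4.57-fold lower than genes of like brightness, with an adjusted p of 0.0246 in limma. Both arrays placed it far below every other carrier except Slc25a35. After median centring, however, its ratios were 1.53 and 0.04 (mean 0.79, adjusted p = 0.0406 in limma), so its direction turned in that setting. With the scanner's own ratio it stayed lower, at -1.68 (adjusted p = 0.0182 in limma). The adjusted p ranged from 0.00949 to 0.118 over 13 alternatives.

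The other 3 carriers of this group lay above 0 on both arrays and did not pass. Slc25a11, the oxoglutarate carrier of the malate-aspartate shuttle, had ratios of 0.41 and 0.91 (mean 0.66 ± 0.36, SD, n = 2; adjusted p = 0.0785 in limma) on net ADM-labelled signals of 34131 and 13667 and cell-labelled signals of 213 and 683. Slc25a3, which brings in the phosphate used to make ATP, had 0.27 and 0.76 (mean 0.52 ± 0.34, adjusted p = 0.116 in limma) on nearly the same signals, 30007 and 11817 against 213 and 665. Slc25a20, the carnitine-acylcarnitine carrier of fatty acid oxidation, had 0.35 and 0.54 (mean 0.44 ± 0.13, adjusted p = 0.0831 in limma) at 1232 and 440.1 against 12.4 and 24.4. None of the 3 changed sign with median centring, at 2.96, 2.78 and 0.82. Slc25a21, which carries oxoadipate, was not well above background on both arrays in either RNA.

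Carriers of amino acids and of cofactors held close together. Of 7 amino acid carriers 5 were tested, with mean ratios from 0.17 for Slc25a22 to 0.31 for Slc25a29, and of these 0 passed. Of the cofactor carriers, Slc25a26 had a mean of 0.07, Slc25a16 of 0.13 and Slc25a32 of 0.24, and none of these passed in limma. At the probes used, the 5 amino acid carriers and these cofactor carriers were above 0 on both arrays after loess, though with median centring 4 of them, Slc25a13, Slc25a15, Slc25a16 and Slc25a32, were below 0. A second Slc25a26 probe had -0.10 and -0.14, and a second Slc25a29 probe had -0.10 and 0.32. Slc25a12 and Slc25a13, the aspartate-glutamate carriers of the malate-aspartate shuttle, had 0.20 and 0.33, and 0.16 and 0.24. The 2 mitoferrins, which bring iron into the matrix, were below 0 on both arrays without passing: Slc25a37 had -0.18 and -0.39, and Slc25a28 had -0.04 and -0.30, the latter at 0.99 with median centring.

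Carriers seen on both arrays for the ADM-labelled RNA but on neither for the cell-labelled RNA were Slc25a13, Slc25a15, Slc25a16, Slc25a30, Slc25a36 and Ucp3. Their net ADM-labelled signals ran from 63.0 (Slc25a30) to 437.0 (Slc25a16) in replicate 1 and from 26.1 to 135 in replicate 2, so all 6 were dim. After loess their mean ratios ran from 0.05 (Slc25a36) to 0.28 (Ucp3), and 0 of the 6 passed in limma. Their direction depended on the normalization. With median centring all 6 were below 0, from -1.92 (Slc25a30) to -0.44 (Slc25a16), and Slc25a15, Slc25a30 and Ucp3 were called lower. With the scanner's own ratio all 6 were above 0, from 0.94 (Slc25a36) to 2.53 (Ucp3), and the 5 genes other than Slc25a36 were called higher. No fold is therefore given for them. Over all genes on the array, 46.1% were seen with the ADM label and 28.7% with the cell label. The share of all genes seen with the ADM label alone was not counted, so whether 6 members are many was not tested.

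None of the uncoupling proteins passed. Ucp1, the heat-producing form of brown fat, had net signals of 9.59 and 8.83 in the ADM-labelled RNA against 8.91 and 13.6 in the cell-labelled RNA, and was not well above background in either. Ucp2, found in many tissues, had net signals of 1046 and 495 in the ADM-labelled RNA against 22.4 and 88.4 in the cell-labelled RNA, with ratios of -0.07 and -0.49 (mean -0.28 ± 0.29, SD, n = 2; adjusted p = 0.266 in limma; 0.26 with median centring). Ucp3, the form of skeletal muscle, had net signals of 229 and 89.6 in the ADM-labelled RNA against 5.37 and 6.81 in the cell-labelled RNA, with ratios of 0.23 and 0.32 (mean 0.28 ± 0.06, SD, n = 2; adjusted p = 0.168 in limma), and a mean of -0.89 with median centring. Ucp2 and Ucp3 were both measured in these vesicles, but neither direction held across normalizations. Their relatives Slc25a14 and Slc25a30, found in brain and kidney, had means of 0.25 and 0.25, and Slc25a27 was not well above background on both arrays in either RNA.

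Slc25a35, a carrier with no substrate assigned here, had the most extreme ratio of all members tested and the only one whose probes disagreed by more than 1 log2 unit. Its brighter probe in these arrays (mm7 chr11:69055802-69055861) was taken from the cDNA AK035739 and had net signals of 253 and 110 in the ADM-labelled RNA against 1057 and 4117 in the cell-labelled RNA. The ratios after loess were -6.88 and -7.62, a mean of -7.25 ± 0.52 (SD, n = 2), or 152-fold lower, with an adjusted p of 0.00257 in limma. In net signal the ADM-labelled RNA was at 0.239 and 0.0268 of the cell-labelled RNA, so this direction does not depend on the loess step, and it stayed below 0 in all 13 alternatives (-8.98 to -3.56). The call was lost in limma where flagged backgrounds were kept, at -3.72 and an adjusted p of 0.505, in a range from 2.48e-57 to 0.505.

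The second Slc25a35 probe (mm7 chr11:69053871-69053930), taken from the RefSeq transcript NM_028048, gave the opposite picture. It had net signals of 634 and 261 in the ADM-labelled RNA against 6.74 and 34.9 in the cell-labelled RNA, and ratios of 0.34 and -0.08, in the range of the other carriers. The probes start 1931 bases apart and differ by 7.38 log2 units in their mean ratio. Between them, on the opposite strand by the order of the files' coordinates, lies a probe of Rangrf (mm7 chr11:69054080-69054139), a gene that encodes a cofactor of nuclear transport. Rangrf had ratios of -0.77 and -1.08 (mean -0.92 ± 0.22, SD, n = 2) and was lower with an adjusted p of 0.0327 in limma. The low ratio was thus measured at the AK035739 probe and not at the RefSeq probe, and which transcript the former reads was not tested. Slc25a34, its closest namesake, was not well above background on both arrays in either RNA.

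Apart from Slc25a35, no member had probes valued on both arrays that differed by more than 0.60 in mean ratio, though signs were not always shared. For 17 members with 2 or more probes seen in an RNA on both arrays and valued on both, the median spread between the highest and lowest mean ratio was 0.21, against 0.29 over 3850 such genes, of which 12.2% had a spread above 1. The next widest member was Timm17b, a channel subunit of TIM23, at 0.60. Its probe 902 bases upstream had 0.24 and 0.53, that at 229 bases had -0.09 and 0.19, and the most 3′ probe had -0.14 and -0.28, so the probes did not share a sign. A further Timm17b probe, at 178 bases, had a value in replicate 1 alone, at -0.61. For the other genes plotted by position, the spread was small beside that of Slc25a35.

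**Figure D3:**
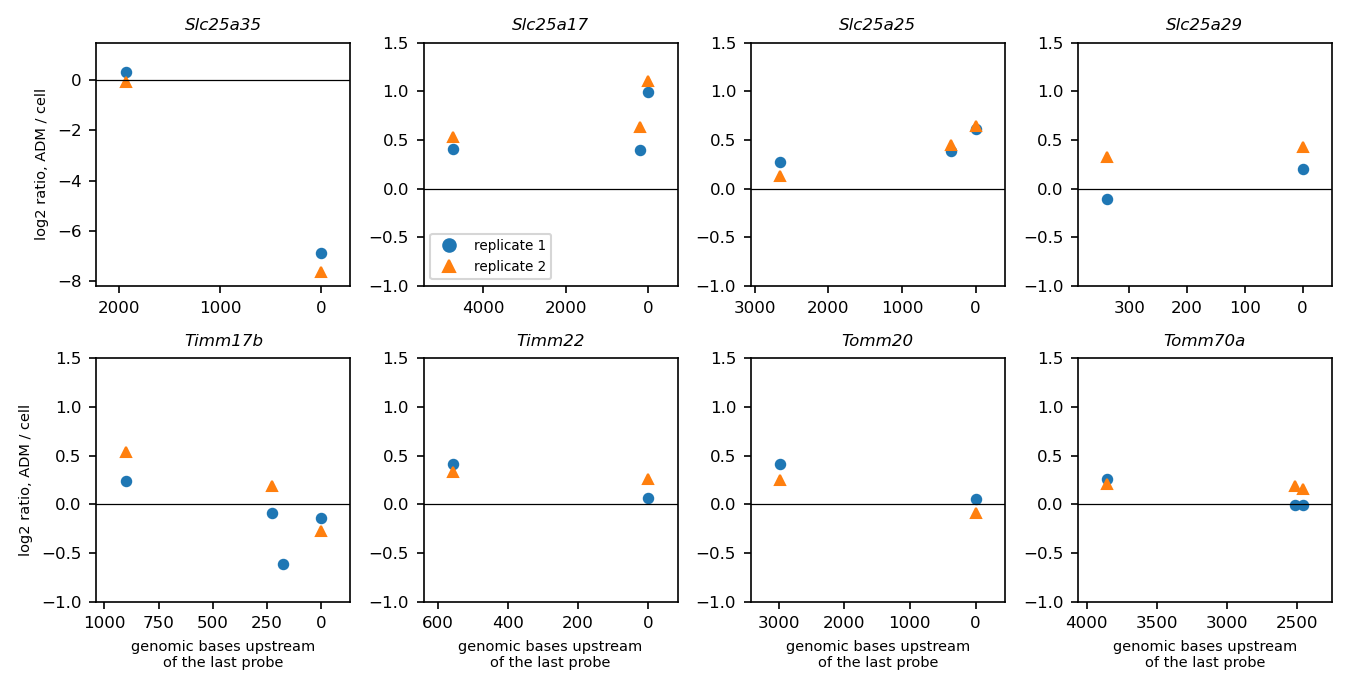
Log2 ratio of ADM-labelled over cell-labelled RNA (after loess) of each probe seen in an RNA on both arrays, against its distance in genomic bases upstream of the gene's last probe, for 8 members with 2 or more such probes; circles are replicate 1 and triangles replicate 2. The panel of Slc25a35 has a longer vertical axis than the others: its probe at 0 lies near -7 and its probe at 1931 bases near 0.

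The Tomm genes, grouped by name with the outer-membrane translocase TOM, had all 7 members tested, and 0 passed in either direction. Whether each is a subunit of the complex was not examined. Tomm40, the pore, had 0.14 and 0.75 (mean 0.45 ± 0.43, SD, n = 2; adjusted p = 0.188 in limma) on net ADM-labelled signals of 1442 and 699 and cell-labelled signals of 20.9 and 32.2. Tomm20 and Tomm70a are the receptors for presequences and for carriers. Tomm20 had 0.42 and 0.25 (mean 0.33 ± 0.12, SD, n = 2; adjusted p = 0.137 in limma), at 17423 and 5785 against 134 and 492. Tomm70a had 0.25 and 0.21 (mean 0.23 ± 0.03, SD, n = 2; adjusted p = 0.217 in limma), at 10117 and 3395 against 101 and 305. Tomm22, which joins the receptors to the pore, had 0.49 and 0.15 (mean 0.32 ± 0.24, SD, n = 2; adjusted p = 0.189 in limma), at 3381 and 977 against 29.7 and 93.4. At the probes used, these 4 were above 0 on both arrays and also with median centring. With the scanner's own ratio Tomm20 was at -0.08 and Tomm70a at -0.21, while Tomm22 was at 0.08 and Tomm40 at 0.88. A second Tomm20 probe had 0.05 and -0.09, and a second Tomm40 probe had 0.01 and 0.40. The other Tomm70a probes seen had means of 0.08 and 0.09. Over the 7 genes the means ran from -0.37 (Tomm7, a small subunit, which was at 2.13 with median centring) to 0.45.

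The inner-membrane translocases gave the same picture. Timm23, the channel of TIM23, had -0.04 and 0.15 (mean 0.05 ± 0.14, SD, n = 2; adjusted p = 0.762 in limma), with net signals of 13302 and 5110 in the ADM-labelled RNA against 154 and 468 in the cell-labelled RNA. Its partner Timm17a had 0.27 and 0.35 (mean 0.31 ± 0.06, SD, n = 2; adjusted p = 0.14 in limma), at 13399 and 5224 against 123 and 414. Timm22, the channel for carrier proteins, had 0.42 and 0.33 (mean 0.37 ± 0.06, SD, n = 2; adjusted p = 0.101 in limma), at 11486 and 3904 against 98.0 and 319. Timm17a and Timm22 were above 0 on both arrays, and Timm23 straddled 0. With the scanner's own ratio Timm17a was at -0.15, Timm22 at -0.04 and Timm23 at -0.43. Timm44, which ties the import motor to TIM23, and Timm50, its receptor, were seen in both RNAs but had a flagged background on 1 array each. Timm44 had 0.26 in replicate 2 and Timm50 had 0.26 in replicate 1, and with flagged spots kept their means were 0.31 and 0.10, with an adjusted p of 0.505 for both in limma.

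Of the small TIM chaperones, which carry hydrophobic proteins across the intermembrane space, all 6 were tested and 2 were lower, where 12.0% of all genes tested were. Whether 2 of 6 differs from that share was not tested. Timm10, which forms a ring with Timm9, had net signals of 34060 and 12390 in the ADM-labelled RNA against 486 and 1700 in the cell-labelled RNA at its only probe (mm7 chr2:84673823-84673882). Its ratios were -0.94 and -0.56, a mean of -0.75 ± 0.27 (SD, n = 2), 1.69-fold lower, with an adjusted p of 0.0498 in limma. The call sat at the threshold: it was lost or turned in 8 of 13 alternatives, with adjusted p from 3.74e-06 to 0.505 in limma. The lowest of these came with median centring, where the mean was 1.75 and the call was higher. Its partner Timm9 had 0.19 and 0.58 (mean 0.39 ± 0.28, SD, n = 2; adjusted p = 0.156 in limma), so the partners lay on opposite sides of an even ratio on both arrays after loess, and both lay above 0 with median centring; the difference between them was not tested.

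Timm8a2, a mouse copy of Timm8a1, was the only member seen on both arrays for the cell-labelled RNA but on neither for the ADM-labelled RNA. Its probe (mm7 chr14:116442513-116442572) had net signals of 13.9 and 14.4 in the ADM-labelled RNA against 42.9 and 118 in the cell-labelled RNA. The ratios were -1.28 and -2.51, a mean of -1.89 ± 0.87 (SD, n = 2), or 3.71-fold lower (adjusted p = 0.0435 in limma). As the ADM-labelled signal is not well above background, this fold is uncertain, and it is a mean of 2 arrays and not a lower bound. Timm8a2 passed the filter on dim probes through the cell-labelled RNA alone, so the filter itself favoured a lower ratio. It had no value where both RNAs had to be well above background. The ratio was below 0 in all 12 alternatives that gave a value, from -6.43 to -0.20. The call was lost in limma without the filter on dim probes (adjusted p = 0.0516) and with robust moderation (0.0514), in a range from 4.87e-21 to 0.505. Timm8a1, the more widely expressed copy, had -0.07 and 0.06 at 6006 and 2422 against 87.9 and 247, and Timm8b had -0.36 and -0.07. Copies as near as Timm8a1 and Timm8a2 can share probe signal, and how far they do was not tested here. The share of all genes seen with the cell label alone, as Timm8a2 was, was not counted, so whether 1 such member is unusual was not tested.

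**Figure D4:**
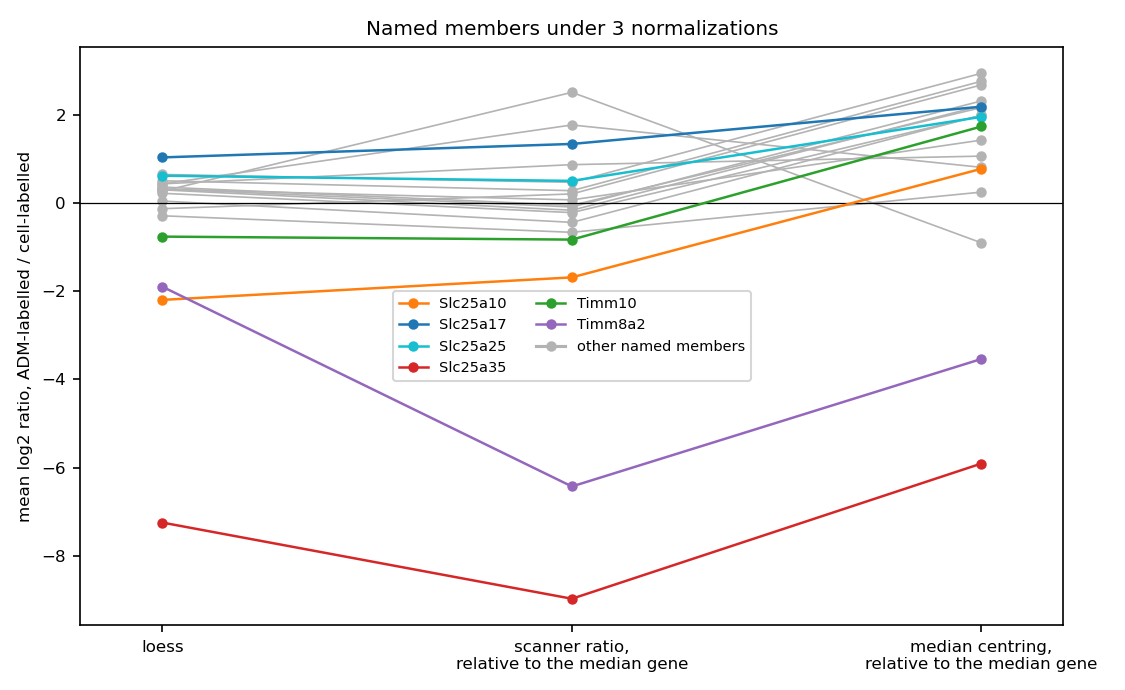
Mean log2 ratio of ADM-labelled over cell-labelled RNA (2 arrays) of the named members under loess, the scanner's processed ratio and median centring, the latter pair relative to the median gene tested. Slc25a35 and Timm8a2 stay below 0 and Slc25a17 and Slc25a25 above 0 in all 3, while Slc25a10 and Timm10 move from below to above 0 with median centring.

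Promoters were read for the 44 of 53 members listed in a RefSeq table of GRCm38.p6, from 250 bases before to 50 after the start of the gene. Nuclear genes of mitochondrial proteins often carry sites for ETS factors such as GABP. The ETS core CCGGAAG, on either strand, occurred in 12 of 44 members (27.3%) against 12.9% of 17492 protein-coding genes. The motif TCAAGGTCA of the estrogen-related receptors occurred in 1 member, Timm8b (2.27%, against 0.377%), and TATAAA in 3 (6.82%, against 14.8%). The ETS core was held by Slc25a17 and Slc25a25, by Timm10 and Timm8a2, and also by members that did not pass, among them Slc25a3, Slc25a4, Tomm22 and Tomm70a. The 120 bases before the start are shown for 4 members that passed in limma, Slc25a17 as higher and the others as lower, with the ETS core in capitals (CTTCCGG where it lies on the other strand). They lie at chr15:81360766-81360885 on the minus strand, and at chr11:120491717-120491836, chr2:84826901-84827020 and chr14:122034554-122034673 on the plus strand.
Slc25a17: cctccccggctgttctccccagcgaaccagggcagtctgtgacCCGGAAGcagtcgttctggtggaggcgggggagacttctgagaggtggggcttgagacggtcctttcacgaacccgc
Slc25a10: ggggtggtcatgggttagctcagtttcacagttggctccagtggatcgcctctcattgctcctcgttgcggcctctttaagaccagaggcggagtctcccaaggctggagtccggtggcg
Timm10: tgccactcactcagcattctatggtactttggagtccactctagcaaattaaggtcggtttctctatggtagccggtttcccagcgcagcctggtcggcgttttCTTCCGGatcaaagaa
Timm8a2: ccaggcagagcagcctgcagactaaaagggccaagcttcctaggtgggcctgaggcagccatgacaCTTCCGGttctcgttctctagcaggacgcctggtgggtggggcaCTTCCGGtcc
The core begins 77 bases before the start in Slc25a17, 16 in Timm10, and 54 and 10 in Timm8a2, and it was not found in this window of Slc25a10. Members on both sides of an even ratio thus share it, and these letters alone do not make a binding site.

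Genes of the same pathways that the name rule did not take were read from lists. Of 23 other import genes, all were tested: 2 were higher and 1 was lower, the other 20 missed the threshold, and the median ratio was 0.05. Of all genes tested, 5.78% were higher and 12.0% lower. Hspa9, the matrix chaperone that drives the import motor, had 0.82 and 0.67 (mean 0.75 ± 0.11, SD, n = 2; adjusted p = 0.0354 in limma). Pmpcb, a subunit of the protease that removes presequences, had 0.57 and 0.92 (mean 0.74 ± 0.25, SD, n = 2; adjusted p = 0.0485 in limma). Hspe1, the small partner of the matrix chaperonin, had -0.75 and -0.75 (mean -0.75 ± 0.00, SD, n = 2; adjusted p = 0.0324 in limma). Of 17 other channels and transporters of mitochondrial membranes 12 were tested: 0 were higher and 1 was lower, with a median of 0.21. The lower one was Sfxn3, a sideroflexin, at -0.59 and -0.69 (mean -0.64 ± 0.07, SD, n = 2; adjusted p = 0.043 in limma). With median centring Hspe1 was at 1.52 and Sfxn3 at 0.33, so both changed sign, while with the scanner's own ratio they were at -1.04 and -1.37. Hspa9 and Pmpcb stayed above 0 in these settings, at 2.41 and 3.07 with median centring and at 0.51 and 0.63 with the scanner's ratio. Mpc1, of the pyruvate carrier, had 0.36 and 0.60 and Vdac1, the pore of the outer membrane, had -0.05 and 0.08, and neither passed.

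The tissue labels were read against marker genes. All 10 adipocyte markers and all 5 preadipocyte markers were seen in ADM-labelled RNA, against 9 and 3 in cell-labelled RNA. Of 5 brown adipocyte markers 2 were seen in both RNAs, Cidea and Ppargc1a; Ucp1 was not seen. Those tested were 7 adipocyte, 5 preadipocyte, 2 brown adipocyte, 1 macrophage and 1 muscle marker. Of the markers tested, 6 passed in limma, where 17.8% of all genes tested did. Slc2a4 (mean 1.39, adjusted p = 0.0196), Col1a1 (2.14, 0.0198) and Pdgfra (0.80, 0.0431) were higher, the first an adipocyte marker and the others preadipocyte markers. Cidea (-0.71, adjusted p = 0.0383 in limma) and the adipocyte markers Lpl (-2.75, 0.0276) and Plin1 (-1.33, 0.0347) were lower. With median centring, however, Lpl was at 0.63 and Plin1 at 1.86, and with the scanner's own ratio at -1.65 and -0.50. The adipocyte markers Adipoq, Cfd and Cidec lacked a value after loess on at least 1 array and were not tested. In replicate 2 Adipoq had 1.03 and Cfd 1.11. The part of these markers in the members' ratios was not tested. The 4 endothelial and 3 hepatocyte and serum markers were seen in neither RNA, and of 6 macrophage markers 2 were seen in the ADM-labelled and 1 in the cell-labelled RNA. Of 4 muscle markers, Acta1 alone was seen, in ADM-labelled RNA only.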

How the data were processed

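RNA of ADMs and of donor 3T3-L1 adipocytes was compared on 2 arrays of 2 colours with the dyes swapped. Mean spot intensities and median background intensities were deposited as scanned by Feature Extraction 10.5.1.1 (annotation mm7), per the file headers; the deposited log10 ratio (red over green) was background-subtracted and dye-normalized by the scanner software, per the file headers. The authors' series table equals that log10 ratio, turned to ADM over cell on the dye-swapped array, for all 45018 spots of each array. No total depth exists for arrays, and their number (2) limits the precision.

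Spots flagged as outliers (293 and 253) or with an outlying local background (2303 and 1710) were left out. Background was corrected by normexp (offset 50) and ratios by loess with control spots at weight 0, in limma 3.58.1 (R 4.3.3). A probe needed the scanner's well-above-background flag on 50% or more of its spots; no gene spot was saturated. The brightest probe stood for a gene, and genes seen in either RNA on both arrays were fitted with lmFit and eBayes (1 residual degree of freedom, Benjamini-Hochberg threshold 0.05). Renaming by RefSeq accession (GRCm38.p6) matched 73 of the 91 member probes. Background shares, the members' counts and the alternatives come from this same table. The script was tested on simulated data.

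Named in full were members that passed, members whose probes differ by over 1 log2 unit, members seen in 1 RNA alone, and core members of each role. Members and lists were chosen with earlier results of these data known. Of 53 members 12 were not tested: Slc25a2, Slc25a18, Slc25a21, Slc25a23, Slc25a27, Slc25a31, Slc25a34 and Ucp1 were not seen on both arrays in an RNA, and Slc25a5, Slc25a24, Timm44 and Timm50 had a flagged background on 1 array. The values of 1 member are not reported here. Alternatives covered background, normalization, filters, probe choice, moderation and each array left out; scaling of ratios between arrays was added after seeing the data.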

Additional observations from a re-analysis of the deposited data

How the results depend on the processing

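Of 53 members 12 had no test, 8 for low signal over background and 4 for a local-background flag. Median centring in place of loess called 26 members higher against 2, or 63.4% of members where it called 35.3% of all genes higher and 37.4% lower; its prior degrees of freedom were infinite against 2.66 with loess, and the cause was not tested. It turned Slc25a10 (0.79), Slc25a4 (2.69), Timm10 (1.75) and Ucp3 (-0.89), put 19 members past 2-fold upward and 5 past 2-fold downward on both arrays (0 and 3 with loess), gave 25 other pathway genes higher (2 with loess), and moved the medians relative to all genes to 1.05 (members, from 0.16), 0.68 (carriers, from 0.19) and 1.93 (import machinery, from 0.01). Members called higher numbered 6 with a normexp offset of 10 (14.6%, against 11.4% of all genes) and 7 with the scanner's ratio (17.1%, against 20.2%). They numbered 4 with ratios scaled between arrays (9.76%, against 10.5% of all genes), a setting chosen after seeing the data. With the median over probes 0 members were called higher (against 5.03% of all genes), and with flagged backgrounds kept 0. Members called lower numbered 2 without the filter on dim probes (against 5.49% of all genes) and 2 with robust moderation (4.88%, against 10.8%). With flagged backgrounds kept 0 were called lower, where limma called 0 of all genes (577 at an unadjusted p under 0.05). The members' share called lower was 7.32% with offset 10 (20.4% of all genes) and 7.32% with the scanner's ratio (22.6%). With median centring it was 14.6%, against 37.4% of all genes. In no setting was it above the share of all genes, and these differences were not tested. Members at least 2-fold higher numbered 1 with offset 10, 3 with plain subtraction and 7 with the scanner's ratio. Shares of all genes past 2-fold are given for the reported fit alone. Other pathway genes called higher numbered 7 (offset 10), 4 (plain subtraction), 0 (flagged backgrounds kept), 5 (all probes), 4 (prior trend), 1 (robust), 7 (scaled) and 4 (scanner's ratio), and those lower, 2 in the reported fit, numbered 1 (offset 10), 1 (plain subtraction) and 0 (flagged backgrounds kept). The members' median moved to 0.24 (offset 10), 0.018 (flagged backgrounds kept), 0.079 (all probes) and -0.047 (scanner's ratio); the carriers' to 0.35 (offset 10), 0.46 (plain subtraction), 0.0059 (flagged backgrounds kept), 0.32 (seen in both RNAs) and 0.47 (scanner's ratio); and the import machinery's to -0.34 (scanner's ratio). The causes of these shifts were not tested. Leaving out 1 array left no residual degrees of freedom, so it gave values without calls: medians of 0.062 to 0.16 for members, 0.081 to 0.20 for carriers and -0.06 to 0.10 for the import machinery, and 0 to 1 members at least 2-fold higher (Slc25a17 in replicate 2 alone, at 1.10). No paired analysis was possible because each array already holds both RNAs of its replicate and there is 1 group of arrays.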
